A study of Homo sapiens with 6 samples.

Results

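Genes that copy DNA and make its building blocks were examined in M14, a human melanoma cell line, with and without depletion of STAG2, a subunit of the cohesin ring that holds and loops chromosomal DNA. The list held 45 genes. They were listed by name for their function, with earlier results of these data known, and each symbol matched exactly 1 of the 57820 genes in the count table. All 45 were expressed above the filter on low counts and were among the 15605 genes tested. RNA sequencing of polyadenylated transcripts was performed on 6 libraries from cells stably carrying a doxycycline-inducible STAG2 shRNA and kept in puromycin. The 3 WT libraries came from cells grown without doxycycline, and the 3 KD libraries came from cells given doxycycline for 5 days to induce the shRNA. The WT cells thus carried the same construct but received no drug, so the effects of doxycycline and of STAG2 depletion cannot be told apart here. All libraries came from 1 cell line and 1 inducible construct. The study describes its RNA-seq replicates as biologically independent, although the labels do not name the cultures, and the p-values measure the spread between these libraries.

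Replication starts when the origin recognition complex, CDC6 and CDT1 load the ring-shaped MCM2-7 helicase onto DNA in G1 phase. In S phase CDC45, the GINS complex and other firing factors switch the helicase on, primase and the DNA polymerases copy the opened strands with the PCNA clamp, and ribonucleotide reductase, thymidylate synthase and thymidine kinase supply deoxynucleotides. Most of these genes are transcribed around the G1/S transition, largely under the control of E2F transcription factors, and their RNA is abundant in proliferating cells.

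The promoters of these genes are known for E2F sites. Windows are printed below for the 6 genes that held such letters and passed as lower in KD with the replicate block described below. These 6 did not pass without the block. RefSeq promoter windows, from 250 bases before to 50 bases after the start site on GRCh38.p14, were found for 39 of the 45 genes. The search used the letters TTTCCCGC, TTTCGCGC, TTTGCCGC and TTTGGCGC on both strands. Each sequence is written 5′ to 3′ on the strand of the gene, and capitals mark the match, with overlapping matches shown as 1 run. They lie at chr2:135876559-135876620 and chr2:135876497-135876558 for MCM6, chr7:100101552-100101609 and chr7:100101398-100101431 for MCM7, and chr13:33818069-33818126 for RFC3. Those of POLE, LIG1 and TYMS lie at chr12:132687343-132687385, chr19:48170426-48170483 and chr18:657589-657646. MCM6, MCM7, POLE and LIG1 are on the minus strand, and RFC3 and TYMS are on the plus strand.
MCM6, 152 bases upstream: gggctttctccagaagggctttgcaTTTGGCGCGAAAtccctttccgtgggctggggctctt
MCM6, 90 bases upstream: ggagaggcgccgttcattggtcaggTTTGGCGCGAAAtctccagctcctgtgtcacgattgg
MCM7, 187 bases upstream: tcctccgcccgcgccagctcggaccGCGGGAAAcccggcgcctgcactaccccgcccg
MCM7, 9 bases upstream: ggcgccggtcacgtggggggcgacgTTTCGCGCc
RFC3, 55 bases upstream: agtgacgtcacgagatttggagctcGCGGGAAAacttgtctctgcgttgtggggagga
POLE, 18 bases upstream: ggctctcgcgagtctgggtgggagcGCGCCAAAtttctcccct
LIG1, 114 bases upstream: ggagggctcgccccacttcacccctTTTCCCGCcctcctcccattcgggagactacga
TYMS, 39 bases upstream: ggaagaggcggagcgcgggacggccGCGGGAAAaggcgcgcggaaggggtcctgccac

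The libraries held between 24895998 and 35181733 expected counts, and 3 counts, taken as the floor of detection, corresponded to 0.087 to 0.112 CPM (counts scaled to the library size after TMM normalization). Every one of the 45 genes was above that floor in every library, with a lowest value of 38 counts. STAG2 itself stood at 66.5, 34.8 and 28.8 CPM in WT replicates 1 to 3 and at 16, 7.31 and 6.7 CPM in KD replicates 1 to 3, a log2 fold change of -2.12 (SE 0.43, Benjamini-Hochberg adjusted p = 0.0342 by the quasi-likelihood test of edgeR). The mitochondrial share of counts was 5.07% for WT replicate 1 and 2.12% to 2.94% elsewhere. All 9 melanoma markers examined were detected, with summed levels of 2040 to 6500 CPM in WT and 1370 to 2730 CPM in KD. Of these, S100B fell (log2 fold change -1.35, SE 0.21, adjusted p = 0.00949, edgeR). With the replicate block described below, 6 of the 9 passed as lower, SOX10 among them (-0.69, adjusted p = 0.0123), beside 4.42% of all tested genes. TYR went the other way without passing (0.35, adjusted p = 0.792, and 0.51 with the block, adjusted p = 0.129), and S100A1 was at -0.04. The 5 leukocyte markers summed to at most 2.7 CPM in WT and 3.7 CPM in KD, and CD3E was at 0 in every library. The 5 fibroblast markers summed to 4.25 to 92.1 CPM in WT and 2.4 to 22.8 CPM in KD, mostly from COL1A1, which had 2.65, 85.1 and 58.1 CPM in WT and 1.4, 19.4 and 17.7 CPM in KD. COL1A1 passed as lower with the block alone (-1.67, adjusted p = 0.00232), and the part of these markers in the results was not tested.

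Upon STAG2 KD, 42 of the 45 genes (93.3%) had a log2 fold change below 0, against 8119 of the 15605 tested genes (52%). The median over the 45 genes was -0.55 on the log2 scale, with a range of -1.32 to 0.41, beside -0.03 over all tested genes. At an adjusted p under 0.05, GMNN alone passed as lower in KD and 0 genes passed as higher, while 0.839% of all tested genes passed as lower and 1.75% as higher. At an unadjusted p under 0.05 the counts were 16 lower and 0 higher, beside 6.98% and 7.77% of all tested genes. DESeq2 called 3 lower and limma-voom 1 at an adjusted p under 0.05, and each called 0 higher. In RNA from whole cultures, fewer cells in S phase and less RNA per cell cannot be told apart. The study cites its authors' earlier work, in which STAG2 knockdown had no apparent effect on the cell cycle of melanoma cells. The mix of cycle phases in these cultures was not tested here.

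**Figure D1:**
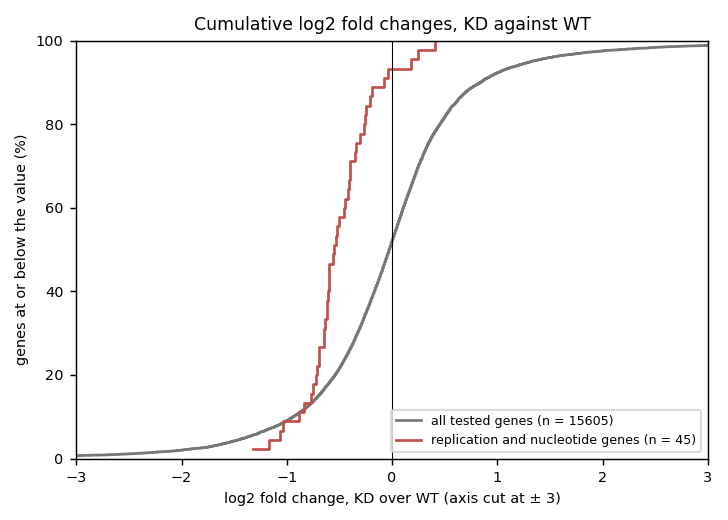
Cumulative percentage of genes (vertical axis) at or below each log2 fold change of KD over WT (horizontal axis), for the 45 replication and nucleotide synthesis genes (red) and all 15605 tested genes (grey). The red line crosses 50% at -0.55 and stands at 93.3% at 0, where the grey line stands at 52%.

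WT and KD libraries of the same replicate number deviated together from their group means, most strongly for replicate 1. A fit with the replicate number as a block was therefore also made. With this block, 13 of the 45 genes passed as lower in KD and 0 as higher, against 4.42% and 5.1% of all tested genes. The 13 genes were MCM4, MCM6, MCM7, GMNN, GINS4, RFC3, POLD2, POLE, PRIM1, LIG1, RRM1, TYMS and TK1. They encode parts of the helicase and of its activator, an inhibitor of helicase loading, and parts of the clamp loader, the polymerases and primase. The rest encode the DNA ligase and nucleotide enzymes. Without the block, every KD library lay below every WT library for 14 of the 45 genes (31.1%), beside 10.5% of all tested genes. The opposite separation was seen for 0 of the 45 and for 11.8% of all tested genes.

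The level of the whole list differed between libraries of 1 group as well. Summed over the 45 genes, the WT libraries held 3365, 4725 and 5269 CPM and the KD libraries 2480, 2904 and 3654 CPM, in the order of the replicate number. The groups overlapped, since KD replicate 3 was above WT replicate 1. WT replicate 1 was the lowest WT library for 28 of the 45 genes, and KD replicate 3 was the highest KD library for 38. Leaving out WT replicate 1 raised the number of genes without overlap from 14 to 32, and leaving out KD replicate 3 raised it to 28. Fewer libraries separate more easily, and the shares of all tested genes without overlap in this direction were then 18.2% and 14.5%. Both libraries lay nearest the other group for most of the 45 genes, so their omission favoured separation. Leaving out any other single library gave 14 or 15 genes without overlap in this direction. Within replicate numbers, the median log2 ratio of KD over WT was -0.38 in replicate 1, -0.70 in replicate 2 and -0.42 in replicate 3. In all 3 pairs KD was lower for 33 genes (73.3%), compared with 23% of all tested genes.

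**Figure D2:**
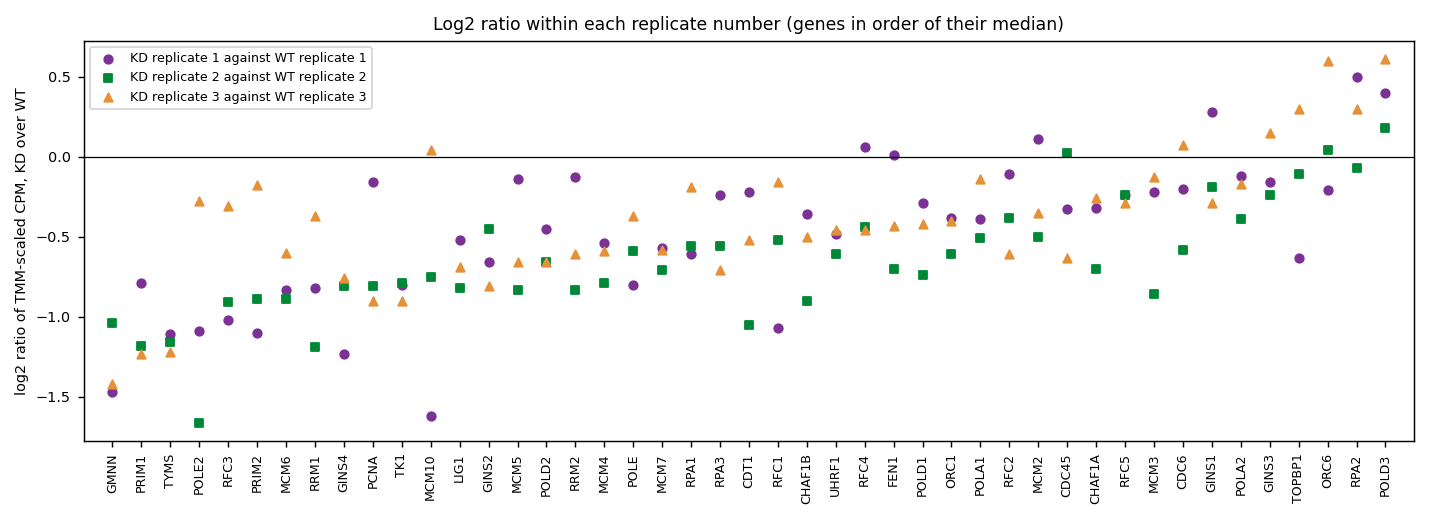
Log2 ratio of KD over WT (vertical axis, TMM-scaled CPM) within replicate 1 (circles), 2 (squares) and 3 (triangles) for each of the 45 genes, in order of the median of the 3 ratios. All 3 points of 33 genes lie below 0, GMNN, PRIM1 and TYMS stand at the left end, and POLD3 at the right end is the gene with all 3 above 0.

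**Figure D3:**
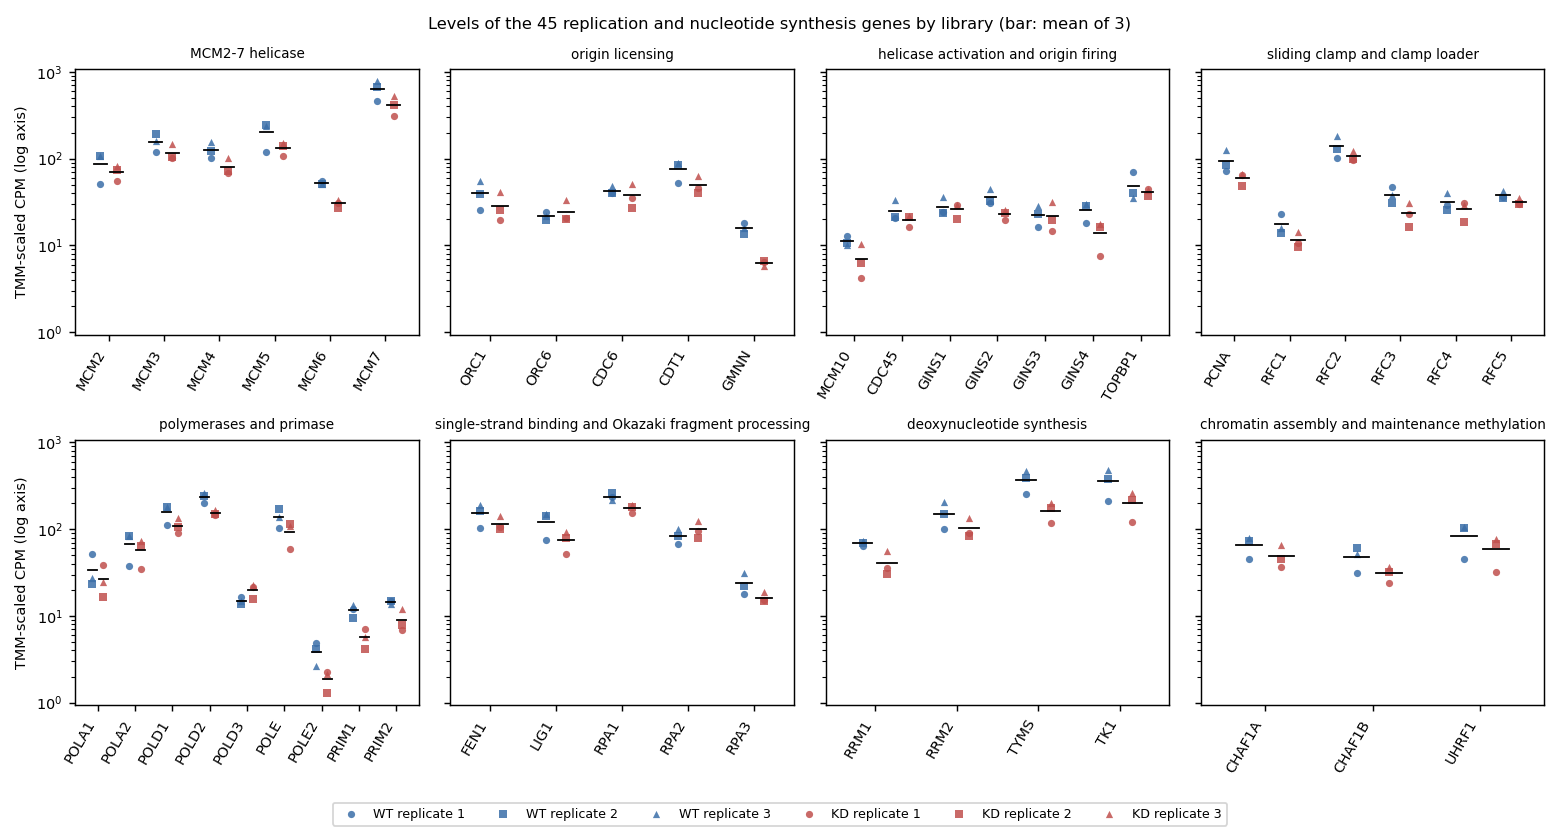
TMM-scaled CPM (vertical log axis) of each of the 45 genes in the 3 WT libraries (blue) and 3 KD libraries (red), in 8 panels by role, with symbols for replicate numbers and bars for the mean of 3. MCM7, TYMS and TK1 are among the genes with the highest CPM and POLE2 has the lowest, and GMNN shows KD points of 5.84 to 6.53 CPM under WT points of 13.5 to 18.1 CPM.

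The 6 genes of the MCM2-7 ring, the motor that unwinds DNA ahead of the fork, all had log2 fold changes below 0, with a median of -0.61. Of these, 3 passed with the replicate block. MCM6 (chr2:136597196-136634013 on GRCh37, minus strand) had 55.1, 50.7 and 50.5 CPM in WT and 31, 27.3 and 33.4 CPM in KD. All KD libraries were well below all WT libraries, and the WT values were close together. The log2 fold change was -0.77 (SE 0.19, adjusted p = 0.0774 without and 0.0186 with the replicate block, edgeR), and DESeq2 gave an adjusted p of 0.0162.

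MCM7 (chr7:99689856-99699563, minus strand) had 462, 677 and 778 CPM in WT and 310, 414 and 522 CPM in KD. KD replicate 3 exceeded WT replicate 1, while KD was lower within each replicate number. Its log2 fold change was -0.62 (SE 0.27, adjusted p = 0.316 without and 0.0168 with the block). Its expected counts were not whole in any library, so some reads had been divided between genes. MCM4 showed a like pattern, its WT libraries holding 101, 124 and 154 CPM and its KD libraries 69, 71.5 and 102 CPM, with a log2 fold change of -0.64 (SE 0.24, adjusted p = 0.225 and 0.0224). The smallest difference of the ring was that of MCM2, with 51.6, 106 and 106 CPM in WT and 55.7, 74.5 and 83.1 CPM in KD. Here KD replicate 1 was above WT replicate 1, and the log2 fold change of -0.30 did not pass (SE 0.29, adjusted p = 0.741, and 0.446 with the block). MCM3 and MCM5 had log2 fold changes of -0.41 and -0.60 and passed neither fit.

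Although the ring holds 1 copy of each subunit, RNA levels per length were unequal. Per kilobase of the canonical transcript, MCM7 stood at 259 ± 65.3 CPM per kb in WT (SD, n = 3) and 168 ± 43 in KD. MCM5 followed at 58.4 ± 20.6 in WT and MCM3 at 50.8 ± 11.7, and these neighbours overlapped within their SD. MCM4 at 31 ± 6.65 and MCM2 at 25.5 ± 9.09 overlapped as well. MCM6 had the lowest level per length in WT, 13.9 ± 0.701 CPM per kb, and in KD it stood at 8.15 ± 0.807.

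Among the 5 licensing genes, the loaders of the ring and their inhibitor, the median log2 fold change was -0.46. GMNN encodes geminin, which binds CDT1 in S and G2 phases and blocks licensing again in the same cycle. The gene (chr6:24775159-24786327, plus strand) was measured at 18.1, 13.5 and 15.8 CPM in WT, and its KD values were 6.5, 6.53 and 5.84 CPM. The KD libraries agreed closely and lay below all WT libraries. GMNN fell by 60.1%, from 15.8 ± 2.31 to 6.29 ± 0.388 CPM (SD, n = 3), a log2 fold change of -1.32 (SE 0.29, adjusted p = 0.046 without and 0.0129 with the block, edgeR). The call was near the threshold, and leaving out any 1 of the 6 libraries brought its adjusted p to between 0.0715 and 0.21.

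CDT1, which geminin inhibits, had a log2 fold change of -0.61 and passed neither fit (adjusted p = 0.311, and 0.0777 with the block). ORC1, the large ATP-binding subunit of the origin recognition complex, and CDC6, its loading partner, had values of -0.46 and -0.19. ORC6, the smallest subunit of the complex, was an exception in direction, with 24, 19.4 and 21.8 CPM in WT and 20.8, 20 and 33.1 CPM in KD. Only KD replicate 3 was above the WT range, and the log2 fold change was 0.18 (SE 0.27, adjusted p = 0.848). Without KD replicate 3 it was -0.11.

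The 7 genes of helicase activation and origin firing had a median log2 fold change of -0.34, with all 7 below 0. GINS4, a subunit of the 4-part GINS complex that ties the helicase to the polymerase, had 18, 28.2 and 29.9 CPM in WT. In KD it had 7.62, 16.1 and 17.6 CPM. All KD libraries were below all WT libraries, with KD replicate 3 just under WT replicate 1. The log2 fold change was -0.88 (SE 0.36, adjusted p = 0.283) and -0.93 with the block (SE 0.22, adjusted p = 0.0241, edgeR). Its partner GINS3 showed no such separation, with 16.2, 23 and 28.6 CPM in WT and 14.6, 19.5 and 31.8 CPM in KD. For GINS3 the log2 fold change was -0.04 (SE 0.34, adjusted p = 0.977), the nearest to 0 of the 45. GINS2 also separated without overlap (-0.65, adjusted p = 0.226, and 0.0565 with the block), while GINS1 was at -0.08. Whether GINS subunits differed from each other in response was not tested. MCM10, CDC45 and TOPBP1, which help to assemble or start the active helicase, had values of -0.69, -0.34 and -0.21 and passed neither fit.

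For PCNA, the ring that clamps polymerases to DNA, and the 5 RFC genes of the loader that opens it, the median log2 fold change was -0.50. RFC3, a small loader subunit, had 46.8, 30.8 and 38.2 CPM in WT and 23.1, 16.4 and 30.7 CPM in KD. KD replicate 3 was just below WT replicate 2, and the groups did not overlap. The log2 fold change was -0.72 (SE 0.28, adjusted p = 0.257) and -0.75 with the block (SE 0.20, adjusted p = 0.0446, edgeR). RFC5, another small subunit, had the smallest difference of the loader, with 35.8, 35.6 and 42.8 CPM in WT and 30.4, 30 and 35 CPM in KD. Its groups did not overlap either, but the gap was narrow and the log2 fold change of -0.26 did not pass (SE 0.20, adjusted p = 0.651, and 0.426 with the block). PCNA had 72.6, 85.5 and 125 CPM in WT and 64.9, 48.8 and 66.8 CPM in KD. All KD values of PCNA were below all WT values, and the log2 fold change of -0.65 missed the threshold in both fits (SE 0.24, adjusted p = 0.24 and 0.0589). RFC1, RFC2 and RFC4 ranged from -0.60 to -0.27.

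Among the 9 polymerase and primase genes the median log2 fold change was -0.56, and 3 passed with the block. PRIM1, the catalytic primase subunit that lays down RNA primers, had 12.1, 9.57 and 13.5 CPM in WT and 7, 4.2 and 5.75 CPM in KD. Every KD value was below every WT value. For PRIM1 the log2 fold change was -1.06 (SE 0.34, adjusted p = 0.168) and -1.07 with the block (SE 0.30, adjusted p = 0.0492, edgeR). PRIM1 lies over NACA, an abundant gene of the same orientation with means of 11920 (WT) and 12080 (KD) expected counts. PRIM2, the regulatory primase subunit, also separated without overlap at -0.69.

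POLD2, an accessory subunit of the lagging-strand polymerase delta, had 198, 239 and 262 CPM in WT and 144, 151 and 166 CPM in KD. All KD libraries lay below all WT libraries, with a log2 fold change of -0.60 (SE 0.19, adjusted p = 0.157 without and 0.0255 with the block). POLE, the catalytic subunit of the leading-strand polymerase epsilon, had 104, 172 and 139 CPM in WT and 59.5, 115 and 108 CPM in KD. Here KD replicates 2 and 3 exceeded WT replicate 1, and the log2 fold change was -0.56 (SE 0.29, adjusted p = 0.42) and -0.59 with the block (SE 0.15, adjusted p = 0.0391). POLD3, another accessory subunit of polymerase delta, ran against the rest, with 16.4, 13.9 and 14.8 CPM in WT and 21.6, 15.7 and 22.5 CPM in KD. KD replicate 2 was within the WT range, while KD was higher within each replicate number. Its log2 fold change of 0.41 did not pass (SE 0.26, adjusted p = 0.538, and 0.331 with the block).

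POLA2, a subunit of the polymerase alpha complex that extends primers, had the smallest difference of this role, with 37.6, 82.8 and 83.2 CPM in WT. In KD it had 34.6, 63.4 and 73.8 CPM. Replicate 1 was low in both groups, and the log2 fold change was -0.25 (SE 0.35, adjusted p = 0.84, and 0.453 with the block). The catalytic subunits POLA1 and POLD1 had values of -0.35 and -0.50. POLE2, an accessory subunit of polymerase epsilon, had the lowest CPM of the 45 genes, with 3.89 ± 1.14 in the WT libraries and 1.89 ± 0.525 in the KD libraries (SD, n = 3), and a log2 fold change of -1.04 with a large SE of 0.57.

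The 5 genes of single-strand binding and Okazaki fragment processing had a median log2 fold change of -0.45. LIG1, the ligase that seals Okazaki fragments, had 74.7, 141 and 148 CPM in WT and 52, 79.4 and 91.7 CPM in KD. WT replicate 1 was below KD replicates 2 and 3, while KD was lower within each number. For LIG1 the log2 fold change was -0.71 (SE 0.30, adjusted p = 0.314) and -0.68 with the block (SE 0.15, adjusted p = 0.0186, edgeR). RPA2, the middle subunit of the RPA complex that coats single-stranded DNA, had 67.8, 83.4 and 101 CPM in WT and 96.1, 79.5 and 124 CPM in KD. The groups overlapped widely, and its log2 fold change of 0.25 did not pass (SE 0.23, adjusted p = 0.723). The other RPA subunits had values below 0, with -0.45 for RPA1, whose groups did not overlap, and -0.53 for RPA3. FEN1, the flap nuclease that trims the fragments, was at -0.40.

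Deoxynucleotide synthesis had the lowest median of the 8 roles, -0.79 on the log2 scale. All 4 of its genes were lower in KD in all 3 pairs, as were all 3 genes of chromatin assembly and maintenance methylation. Whether the roles differed from each other was not tested. TYMS, thymidylate synthase, makes dTMP from dUMP and is the target of fluorouracil. The gene (chr18:657653-673578, plus strand) had 252, 394 and 463 CPM in WT and 117, 177 and 198 CPM in KD. All KD libraries were below the lowest WT library. From 370 ± 107 to 164 ± 41.9 CPM (SD, n = 3), the log2 fold change was -1.17 (SE 0.28, adjusted p = 0.0658) and -1.16 with the block (SE 0.14, adjusted p = 0.000577, edgeR). The 3 pair ratios were -1.11, -1.16 and -1.22. TYMS overlaps TYMSOS and ENOSF1 on the opposite strand, and without a stated strand setting for the counting, their reads cannot be told apart from those of TYMS. These neighbours had log2 fold changes of -1.39 (adjusted p = 0.335) and -0.41 (adjusted p = 0.517), and their part in the TYMS value was not tested.

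TK1, the S-phase thymidine kinase that salvages thymidine, had 209, 376 and 484 CPM in WT and 120, 217 and 260 CPM in KD. KD replicates 2 and 3 exceeded WT replicate 1, but the pair ratios were close, at -0.80, -0.79 and -0.90. The log2 fold change was -0.84 (SE 0.35, adjusted p = 0.306 without and 0.00416 with the block). RRM1, the large catalytic subunit of ribonucleotide reductase, had 63.4, 70.1 and 72.2 CPM in WT and 35.9, 30.7 and 56 CPM in KD. Its groups did not overlap, with KD replicate 3 nearest to WT, and the log2 fold change was -0.75 (SE 0.25, adjusted p = 0.175) and -0.79 with the block (SE 0.19, adjusted p = 0.0279). RRM2, the small subunit whose amount limits the enzyme, had 99.9, 148 and 205 CPM in WT and 91.3, 82.8 and 134 CPM in KD. KD replicate 3 lay within the WT range, and the log2 fold change of -0.55 did not pass (SE 0.29, adjusted p = 0.436, and 0.084 with the block).

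The 3 genes of chromatin assembly and maintenance methylation had a median of -0.52. At an adjusted p under 0.05, 0 of 3 passed by edgeR with or without the block, DESeq2 or limma-voom. Without the block, 0 of 3 passed at an unadjusted p under 0.05 as well. With the block, the edgeR adjusted p was 0.155 for CHAF1A, 0.0737 for CHAF1B and 0.061 for UHRF1. The unadjusted p with the block was 0.0287, 0.00901 and 0.00658. CHAF1A and CHAF1B encode subunits of CAF-1, which places histones on new DNA. CHAF1A had 45.4, 73.4 and 78.6 CPM in WT and 36.4, 45.2 and 65.5 CPM in KD. CHAF1B had 30.9, 60 and 52.1 CPM in WT and 24.1, 32.2 and 37 CPM in KD. In both genes WT replicate 1 fell within the KD range, and the log2 fold changes were -0.42 (SE 0.28, adjusted p = 0.578) and -0.62 (SE 0.28, adjusted p = 0.354). UHRF1, which brings the maintenance methyltransferase to hemimethylated DNA, was at -0.52.

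**Figure D4:**
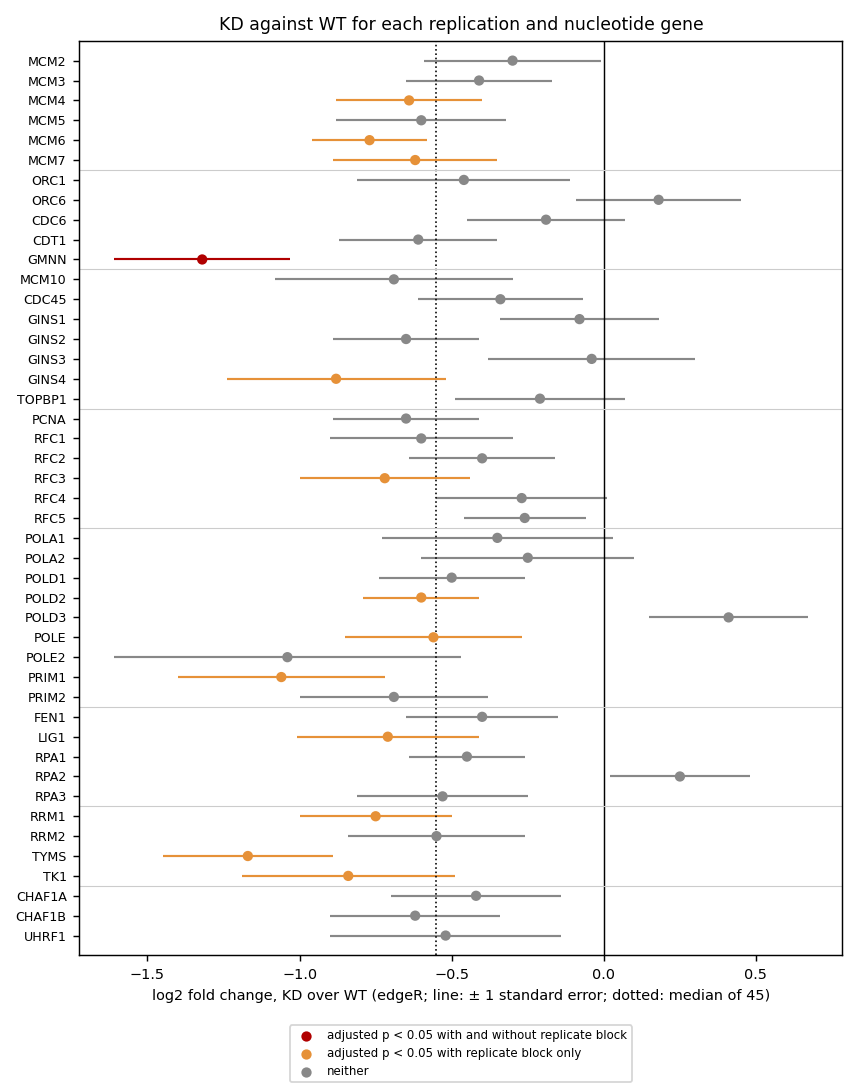
Log2 fold change of KD over WT (horizontal axis) for each of the 45 genes, grouped by role, with lines of ± 1 SE derived from the edgeR F statistic. GMNN at -1.32 passed with and without the replicate block, 12 further genes passed with the block only, and ORC6, POLD3 and RPA2 are the genes right of 0.

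Further genes of the pathways were read from lists that hold none of the 45. For 35 other replication genes the median log2 fold change was -0.35. Every KD library lay below every WT library for 11 of them (31.4%), a share like the 31.1% of the 45 genes. The opposite separation was seen for 2, and the shares of all tested genes were 10.5% and 11.8%. Of the 35, 1 passed as lower in KD without the block. It was HELLS, a chromatin remodeler of the SNF2 family, with 14.3, 13.6 and 9.39 CPM in WT and 5.04, 3.05 and 3.24 CPM in KD. All KD values of HELLS were below all WT values (log2 fold change -1.72, SE 0.37, adjusted p = 0.0451, edgeR, and 0.00843 with the block). Without the block, the call was lost on leaving out any 1 of the 6 libraries. With the block 3 passed as lower, the others being TICRR, an origin firing factor, and RNASEH2A, the catalytic subunit of an RNase that removes ribonucleotides from DNA.

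Of 31 other genes of nucleotide synthesis and breakdown, 1 passed as higher in KD, and the median was -0.12. SAMHD1, which breaks down deoxynucleotide triphosphates and is also induced by interferon, had 11.1, 22.2 and 13 CPM in WT and 105, 102 and 160 CPM in KD. Every KD library was far above every WT library, and the log2 fold change was 2.98 (SE 0.32, adjusted p = 0.0011, edgeR). With the block SAMHD1 still passed, and the genes that passed as lower included DTYMK, which phosphorylates dTMP (-0.97, adjusted p = 0.00251), and SHMT1, which charges folate with the carbon that TYMS transfers (-0.59, adjusted p = 0.0314). Both were named after their values were seen.

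Of 13 genes of the E2F and pocket protein families, 0 passed in either direction by edgeR, DESeq2 or limma-voom, and 2 lower and 2 higher had an unadjusted p under 0.05, for which the shares of all tested genes are given above. With the block, E2F2 (-1.07, adjusted p = 0.0189) and TFDP1, the partner of E2F proteins (-0.59, adjusted p = 0.0305), passed as lower. Every KD library lay above every WT library for 2 of the 13, E2F6 (log2 fold change 0.64) and E2F7 (0.71), and below for 1, RBL1 (-0.84). The shares of all tested genes were 11.8% and 10.5%. E2F6, E2F7 and RBL1 passed neither fit. These genes too were named after their values were seen. E2F1 had 40.8, 67.1 and 93.6 CPM in WT and 51.9, 58.8 and 77.5 CPM in KD. Its groups overlapped (log2 fold change -0.10, SE 0.30, adjusted p = 0.932).

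Genes of mitosis, which are transcribed later in the cell cycle, are given beside the replication genes. This list too was written with earlier results of these data known. All 20 on the list had KD libraries below WT libraries without overlap, beside 10.5% of all tested genes. The median log2 fold change was -1.23. As lower in KD, 10 passed without the block and 19 with it, beside 0.839% and 4.42% of all tested genes. The 10 were MKI67, TOP2A, CCNB2, AURKA, PLK1, CENPF, NDC80, TPX2, UBE2C and BIRC5. Without the block, 10 also passed after leaving out WT replicate 1, and 1 to 2 after leaving out any other single library. TOP2A, which untangles sister chromatids, had 263, 127 and 133 CPM in WT and 39.8, 29.8 and 42.5 CPM in KD (log2 fold change -2.22, SE 0.31, adjusted p = 0.00582, edgeR). Whether the mitosis genes differed from the 45 genes by more than the spread between libraries was not tested, and the part of a different mix of cycle phases in either list was not tested.

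Among the promoters, 19 of the 39 windows of the 45 genes (48.7%) held an E2F match, beside 5.3% of the windows of 10141 tested genes and 3.33% of all 27305 windows. A CCAAT box, read as CCAAT on either strand, was in 56.4% of the windows of the 45 genes, 36.9% of those of tested genes and 35.7% of all. The CHR, an element known from genes of G2 and mitosis and read as TTTGAA or TTCGAA on either strand, was found in MCM6 and RRM1, which is 5.13%, beside 10.9% of tested genes and 16.6% of all. Of 16 windows of the mitosis genes, 12.5% held the E2F letters, 75% those of the CHR and 81.2% a CCAAT box. For 29 windows of the other replication genes, the shares were 24.1%, 6.9% and 65.5% in the same order. The CCAAT share of the 45 genes was thus below that of both lists. These shares describe letters in fixed windows and not binding.

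**Figure D5:**
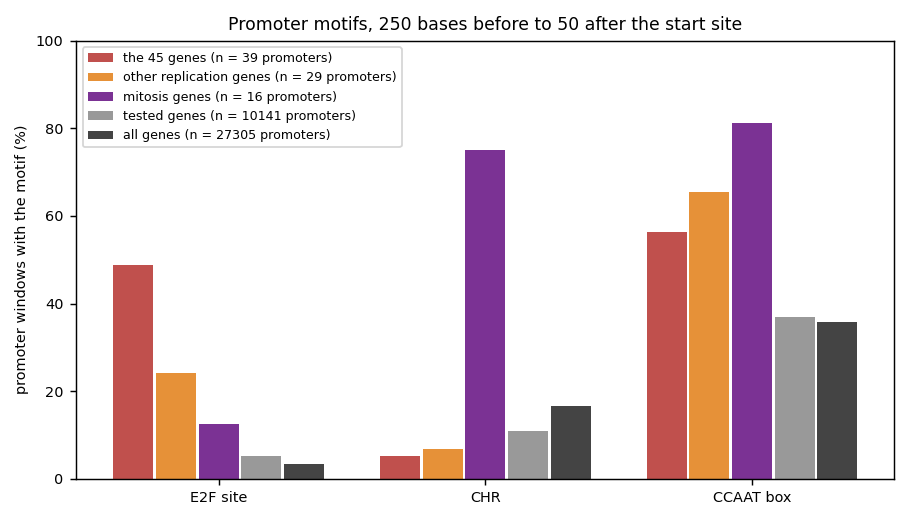
Percentage of promoter windows with an E2F match, a CHR or a CCAAT box (vertical axis) for the 45 genes, other replication genes, mitosis genes, tested genes and all genes, with the number of windows in the legend. The E2F bar is highest for the 45 genes (48.7%), and the CHR bar (75%) and the CCAAT bar (81.2%) are highest for the mitosis genes.

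Among the 39 genes with a window, the log2 fold changes did not separate by the E2F letters. MCM4 and GINS4, which passed with the block, and POLD3 and RPA2, with values above 0, had no window. The median was -0.56 for the 19 genes with a match, of which 6 passed with the replicate block, and -0.52 for the 20 without, of which 5 passed. The 6 with a match are those whose windows are printed above. GMNN and TK1, with log2 fold changes of -1.32 and -0.84, held none of the 3 motifs in the window.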

How the data were processed

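RNA was sequenced from 3 WT and 3 KD libraries of M14 cells, made with a directional kit after poly(A) selection. The authors deposited expected counts per gene, obtained with STAR and RSEM on hg19, unscaled and unfiltered. RSEM divides reads that fit several genes between them, so 24 of the 45 genes had whole counts in all 6 libraries and the others did not. The strand setting of the counting is not given in the sources used here. The reads carry no molecular identifiers that the sources name, so the floor of 3 counts covers counting error only.

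The expected counts were rounded, filtered with filterByExpr (15605 genes), scaled by TMM and tested with edgeR 4.0.16 (quasi-likelihood) in R 4.3.3, without a replicate block since the methods name no pairing. Benjamini-Hochberg adjustment covered all tested genes, and an adjusted p under 0.05 was the threshold. Each SE was derived from the test, as the absolute log2 fold change divided by the square root of its F statistic. CPM are TMM-scaled. The scripts were tested on simulated data.

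The labels number replicates in both groups. Over 8932 genes with a mean of at least 10 CPM, deviations from the group means correlated with r = 0.574, 0.457 and 0.36 for equal numbers, and with -0.531 to 0.282 for unequal ones. The numbers were therefore taken as pairs and blocked values are given. Between replicates 2 and 3 the r for unequal numbers were 0.282 and 0.161. Replicate 1 thus stood apart more clearly than replicates 2 and 3 did from each other. The deviations of 3 libraries from their mean cancel out, so these values depend on one another. Alternatives were the block, DESeq2 1.42.0, upper-quartile scaling, limma-voom (limma 3.58.1), no filter, at least 10 counts in every library, and leaving out libraries. The block without replicate 1 was added after the data had been seen.

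The members, roles and further lists were chosen with earlier results of these data known. Per-library values are given for each member that passed either fit and for the members with the largest and smallest absolute log2 fold change of each role. PCNA and E2F1 were added to these, and POLE2 by its means. Of the further lists, genes that passed without the block are named. Any other gene was named after its values were seen. 1 further gene of these lists is not reported here.

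Gene positions come from GENCODE on GRCh37, where 44 of the 45 identifiers matched (not UHRF1), and 12 genes overlap another gene on the same strand. Levels per kb use the canonical transcript. Promoter windows of 300 bases come from RefSeq on GRCh38.p14. A single window per gene was searched, so other start sites were left out. MCM4, MCM5, GINS4, POLD3, RPA2 and RPA3 had no window. The marker PECAM1 was not matched.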

Additional observations from a re-analysis of the deposited data

How the results depend on the processing

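The numbers of calls depended on the processing, both for the 45 genes and over all genes tested, while the median log2 fold change of the 45 genes stayed between -0.72 and -0.44 when libraries were left out. Members called lower in KD numbered 1 without the replicate block, 13 with the block, 3 with DESeq2 (MCM6, GMNN and TYMS), 4 without a filter (GMNN, RRM1, TYMS and TK1) and 2 with at least 10 counts in every library (GMNN and TYMS). Limma-voom called 1, TYMS, and gave GMNN an adjusted p of 0.0562. Over all genes, calls in either direction numbered 404 without the block, 1486 with it, 979 with DESeq2, 412 with limma-voom, 1103 without a filter, 452 with at least 10 counts, 531 without WT replicate 1, 121 to 241 without any other single library, 757 without replicate 1 and 1441 with the block and without replicate 1. Leaving out WT replicate 1 called 1 (TYMS), and leaving out any other single library called 0 members. Leaving out both libraries of replicate 1 called 4 (MCM5, LIG1, TYMS and TK1). The block without replicate 1 called 15, of which 9 were among the 13. Members without overlap numbered 14 to 32 as lower and 0 to 1 as higher over these omissions. GINS3 ranged from -0.42 to 0.19 with libraries left out and was at 0.16, 0.19 and 0.03 without WT replicate 3, KD replicate 1 and KD replicate 2. POLA2 ranged from -0.54 to 0.02, the latter without KD replicate 1, and ORC6 from -0.11 without KD replicate 3 to 0.37. For the other replication genes, lower calls numbered 3 with the block, 2 without a filter, 0 to 1 with libraries left out and 4 with the block and without replicate 1. For the other nucleotide genes, lower calls numbered 3 with the block, 2 with DESeq2, 1 with upper-quartile scaling, 1 with limma-voom, 2 without a filter, 1 with at least 10 counts, 0 to 1 with libraries left out and 5 with the block and without replicate 1, and higher calls 1 to 2. E2F family calls were 2 lower with the block, 0 in either direction with libraries left out without the block, and 2 lower and 1 higher with the block and without replicate 1. Mitosis genes called lower numbered 19 with the block, 18 with DESeq2, 19 without a filter, 1 to 10 with libraries left out and 17 with the block and without replicate 1. The cause of these shifts was not tested.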
